A study of Mus musculus with 31 samples.

Results

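The genes that load and display peptides on MHC class I molecules were followed through both RNA-seq experiments of a study on tau, microglia and the DNA sensor cGAS. The 9 genes were chosen by name for their role in class I presentation, with earlier results of these data known. Counts of members beside the share of all genes are therefore descriptive. Their rows were read from both count tables: H2-D1, H2-K1, H2-T23, B2m, Tap1, Tap2, Tapbp, Nlrc5 and Erap1. All 9 were found among the 48795 genes of the hippocampal table and the 54532 genes of the microglial table. All 9 also passed the filter on low counts, which left 16453 genes in hippocampi and 13675 in microglia.

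Class I molecules display fragments of a cell's own proteins to CD8+ T cells and NK cells. Peptides are cut in the cytosol by proteasomes, carried into the endoplasmic reticulum by the TAP transporter, trimmed there by the aminopeptidase ERAP1 and fitted with the help of tapasin onto a heavy chain that is bound to β2-microglobulin. The genes are known targets of interferon signaling, in part through the transactivator NLRC5, and resting microglia of the adult brain show little class I on their surface.

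Hippocampi came from 7 non-transgenic (Ntg) mice, 3 females and 4 males, and from 6 P301S transgenic mice, 3 females and 3 males, all labeled as 8 to 9 months old. P301S mice carry human tau with the P301S mutation under the mouse prion promoter, and the Cgas genotype of these mice is not given in the labels. Each library is 1 mouse. Primary microglia were grown from cortices of newborn Cgas+/+ or Cgas-/- pups, detached from mixed glial cultures kept with GM-CSF, and treated for 6 h with vehicle, 2 μg/ml tau fibrils or 1 μg/ml herring testis DNA (HT-DNA), a DNA ligand of cGAS. Each of the 6 groups held 3 libraries. The study's legends call the samples behind these counts biologically independent. The labels do not say whether they came from separate litters or cultures, so p-values in microglia measure the spread between these libraries.

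Libraries held 25953296 to 35779977 counted reads in hippocampi and 17037459 to 25174764 in microglia. Values below are normalized CPM, the reads of a gene relative to all counted reads of its library after scaling by trimmed means of M values (TMM), and a log2 fold change is a difference between groups. A gene passed when the adjusted p of edgeR's quasi-likelihood test, after Benjamini-Hochberg adjustment over all genes tested, was under 0.05. Cgas, the deleted gene, had 18.8 to 44.3 CPM in the 9 Cgas+/+ libraries and 3.76 to 7.45 CPM in the 9 Cgas-/- libraries. The cultures may also have differed in their mix of sexes. The Y-linked Ddx3y had 23.3 to 32.2 CPM in Cgas+/+ and 49.3 to 59.1 CPM in Cgas-/- libraries, so genotype, culture and sex mix cannot be told apart. The microglial markers Csf1r and Cx3cr1 were expressed in every culture, at 539 to 1273 and 108 to 448 CPM, whereas Siglech was at or near 0 and P2ry12 did not exceed 19.1 CPM.

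In the GRCm38 annotation, 6 of the 9 genes lie on chromosome 17 between positions 33915899 and 36032855, in the mouse MHC. They are H2-D1, H2-K1, H2-T23, Tap1, Tap2 and Tapbp. B2m is on chromosome 2 (122147686 to 122153083), Nlrc5 on chromosome 8 (94434356 to 94527272) and Erap1 on chromosome 13 (74639568 to 74693201). Promoter windows from RefSeq (GRCm38.p6, 250 bases before to 50 bases after a transcription start) matched 7 of the 9 genes, with 2 windows for H2-K1. Tap2 and Nlrc5 had no entry. The windows were searched on both strands for letters of elements that are known from class I promoters.

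The first pair of sites is shown because the classical heavy chain genes H2-D1 and H2-K1 share it. Whether it bears on any value below was not tested. Capitals mark matches to the outer letters of a kappaB site (GGG, any 5 bases, CC). The H2-D1 site is at chr17:35262905-35262934 on the plus strand, inside an annotated exon of the gene, and the H2-K1 site is at chr17:34000447-34000476 on the minus strand, outside annotated exons.
H2-D1: gtGGGGAAGCCCagggctGGGGATTCCCCa
H2-K1: gtGGGGAAGCCCagggctGGGGATTCCCCa
All 30 of 30 bases were identical. This loose kappaB pattern was common, in 50.8% of all 32851 promoter windows, but the run GGGGATTCCCC, chosen after the sequences were seen, was in 10 windows (0.0304%) of 9 genes, among them H2-D1, H2-K1 and H2-Q6. The 30-base site, copied from the H2-D1 window, was in 3 windows, those of H2-D1 and H2-K1.

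Matches to the core of an interferon-stimulated response element (ISRE: GAAA, any 2 bases, GAAA) were in 3 of the 7 members with a window, namely B2m, H2-T23 and Erap1, and in 3.44% of all windows. In the lines below capitals mark that core. The sites are on the minus strand at chr17:36032806-36032835 for H2-T23, and on the plus strand at chr13:74639839-74639868 for Erap1 and chr2:122147538-122147567 for B2m. Annotated exons of the genes themselves overlap the H2-T23 and Erap1 sites, and none overlaps the B2m site. The Erap1 match begins at -4 from the RefSeq start and runs across it.
H2-T23: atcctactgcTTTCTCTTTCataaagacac
Erap1: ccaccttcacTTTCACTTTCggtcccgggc
B2m: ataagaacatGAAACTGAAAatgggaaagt
The B2m window held most kinds of element side by side. Its bases outside annotated exons, chr2:122147487-122147685 on the plus strand, are printed with capitals at the ISRE core, at 2 stretches with kappaB letters, where matches on both strands overlap, at TGACG (a part of the X2 box) and at the reverse of CCAAT (the Y box).
B2m upstream: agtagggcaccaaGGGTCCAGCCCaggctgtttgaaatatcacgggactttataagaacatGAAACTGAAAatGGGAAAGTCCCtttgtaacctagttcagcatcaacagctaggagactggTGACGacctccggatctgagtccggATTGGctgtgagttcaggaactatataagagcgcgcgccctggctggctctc
CCAAT was in 6 of the 7 members with a window against 37.4% of all windows, and TGACG in 4 of 7 against 20.8%. No member window held TTCNNNGAA, the core of a gamma-activated site, which was in 8.3% of all windows. A match describes letters only, and a missing match says nothing of a factor.

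**Figure D1:**
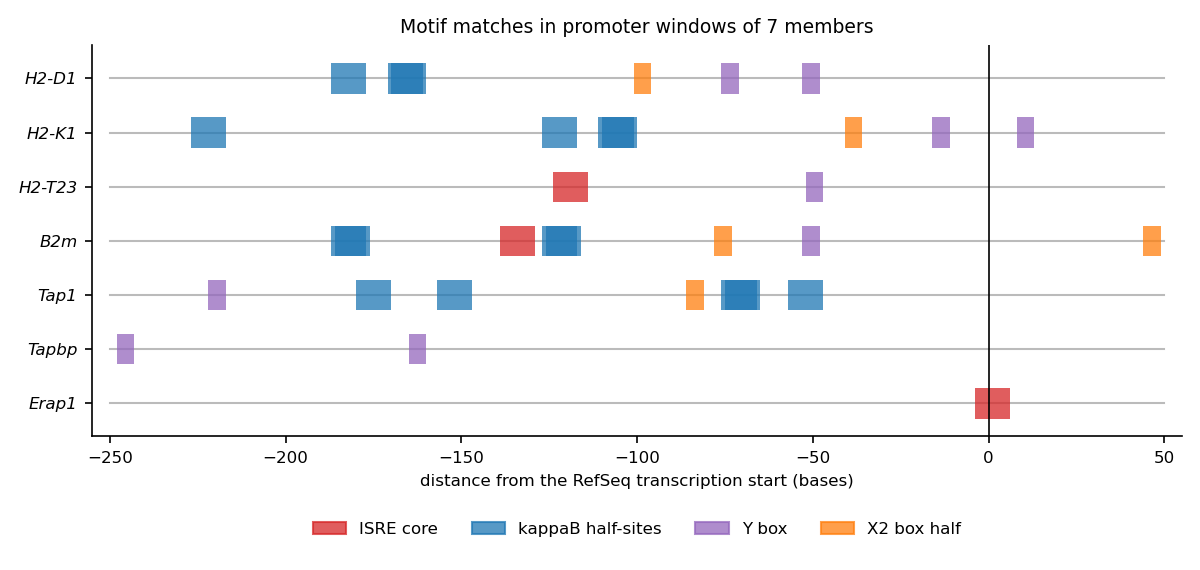
Matches to 4 sequence patterns in the promoter windows of 7 members, drawn by distance in bases from the RefSeq start (vertical line), with colored boxes for each match on either strand and the first window for H2-K1. Stretches with kappaB letters appear in H2-D1, H2-K1, Tap1 and B2m, and ISRE cores appear in H2-T23, B2m and Erap1.

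To see whether class I genes differ in tauopathy, P301S hippocampi were compared with Ntg hippocampi. H2-D1, the classical heavy chain D, was higher in every P301S mouse than in any Ntg mouse. H2-K1, H2-T23, B2m and Nlrc5 were also higher by the test, so 5 of the 9 members passed as higher, against 1.39% of all genes tested, and 0 passed as lower, against 0.122%. All 5 also went beyond a log2 fold change of 0.5, the limit that the study used for hippocampi, which 1.32% of all genes did. The median log2 fold change of the 9 members was 1.48, beside 0.00 over all genes. In bulk tissue, more cells that express a gene and more RNA per cell cannot be told apart.

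Among the heavy chains, H2-D1 was at 17.7, 20.5 and 31.4 CPM (lowest, median and highest) in Ntg mice and at 46.6, 128 and 268 CPM in P301S mice. The groups did not overlap, and the log2 fold change was 2.63 ± 0.31 (SE, 95% CI 1.96 to 3.31), or 6.21-fold, with an adjusted p of 0.00216 by edgeR's quasi-likelihood test. An exact two-sided permutation test over the mice gave p = 0.000583, the smallest that 7 against 6 mice allow.

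H2-K1, the other classical heavy chain among the members, was at 17.0, 18.7 and 25.8 CPM in Ntg mice and at 25.9, 69.5 and 139 CPM in P301S mice. Its groups were barely apart, with the lowest P301S mouse (43) at 25.9 CPM and the highest Ntg mouse (55) at 25.8 CPM. The log2 fold change was 1.95 ± 0.35 (SE), with an adjusted p of 0.0281 by edgeR and an exact permutation p of 0.000583. H2-T23, which encodes the nonclassical chain Qa-1 that NK cell receptors read, was at 4.13, 6.26 and 8.65 CPM in Ntg and at 6.26, 17.2 and 35.6 CPM in P301S mice, with 1 P301S mouse within the Ntg range. Its log2 fold change was 1.58 ± 0.33 (SE, adjusted p = 0.0326 by edgeR, exact permutation p = 0.00291).

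B2m, the light chain that every class I molecule needs, was at 71.9, 86.1 and 96.5 CPM in Ntg and at 80.0, 256 and 444 CPM in P301S mice. It was higher by 1.48 ± 0.31 on the log2 scale (SE, adjusted p = 0.0343 by edgeR, exact permutation p = 0.00758), and 5 of 6 P301S mice were above every Ntg mouse. Nlrc5, the transactivator of class I genes, was low throughout, at 0.341, 0.653 and 0.952 CPM in Ntg (9 to 32 reads) and 0.758, 3.12 and 4.66 CPM in P301S mice (23 to 141 reads). Its log2 fold change was 2.17 ± 0.42 (SE, adjusted p = 0.0303 by edgeR, exact permutation p = 0.00291), with 4 of 6 P301S mice above the Ntg range.

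The peptide transport and trimming genes had smaller differences that did not pass by edgeR. Their exact permutation p-values were 0.0262 for Tap1, 0.0245 for Tap2, 0.0169 for Tapbp and 0.113 for Erap1. By DESeq2, Tap1 (adjusted p = 0.00581) and Tapbp (adjusted p = 0.0348) passed, so where the calls end depends on the test. Tap1, a TAP subunit, differed by 1.08 (adjusted p = 0.064 by edgeR), Tapbp, which encodes tapasin, by 0.45 (adjusted p = 0.0995), Tap2, the other TAP subunit, by 0.46 (adjusted p = 0.131) and Erap1 by 0.33 (adjusted p = 0.311) on the log2 scale. For Tap1, Tap2 and Tapbp, 4 of 6 P301S mice were above every Ntg mouse, and for Erap1 5 of 6 were. Groups without overlap were seen for 2 of the 9 members, against 0.438% of all genes.

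The P301S mice differed among themselves. Mice 29, 36, 65 and 77 were above every Ntg mouse for 9 of 9 members, mouse 63 for 4 and mouse 43 for 3. Mouse 65 held the highest value of 5 members, mouse 29 of 3 and mouse 77 of 1. The high and low mice were of both sexes, and the interaction of sex with genotype passed for 0 of 9 members by edgeR (0 of 9 at an unadjusted p under 0.05, 0 of 9 by DESeq2, 0% of all genes).

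**Figure D2:**
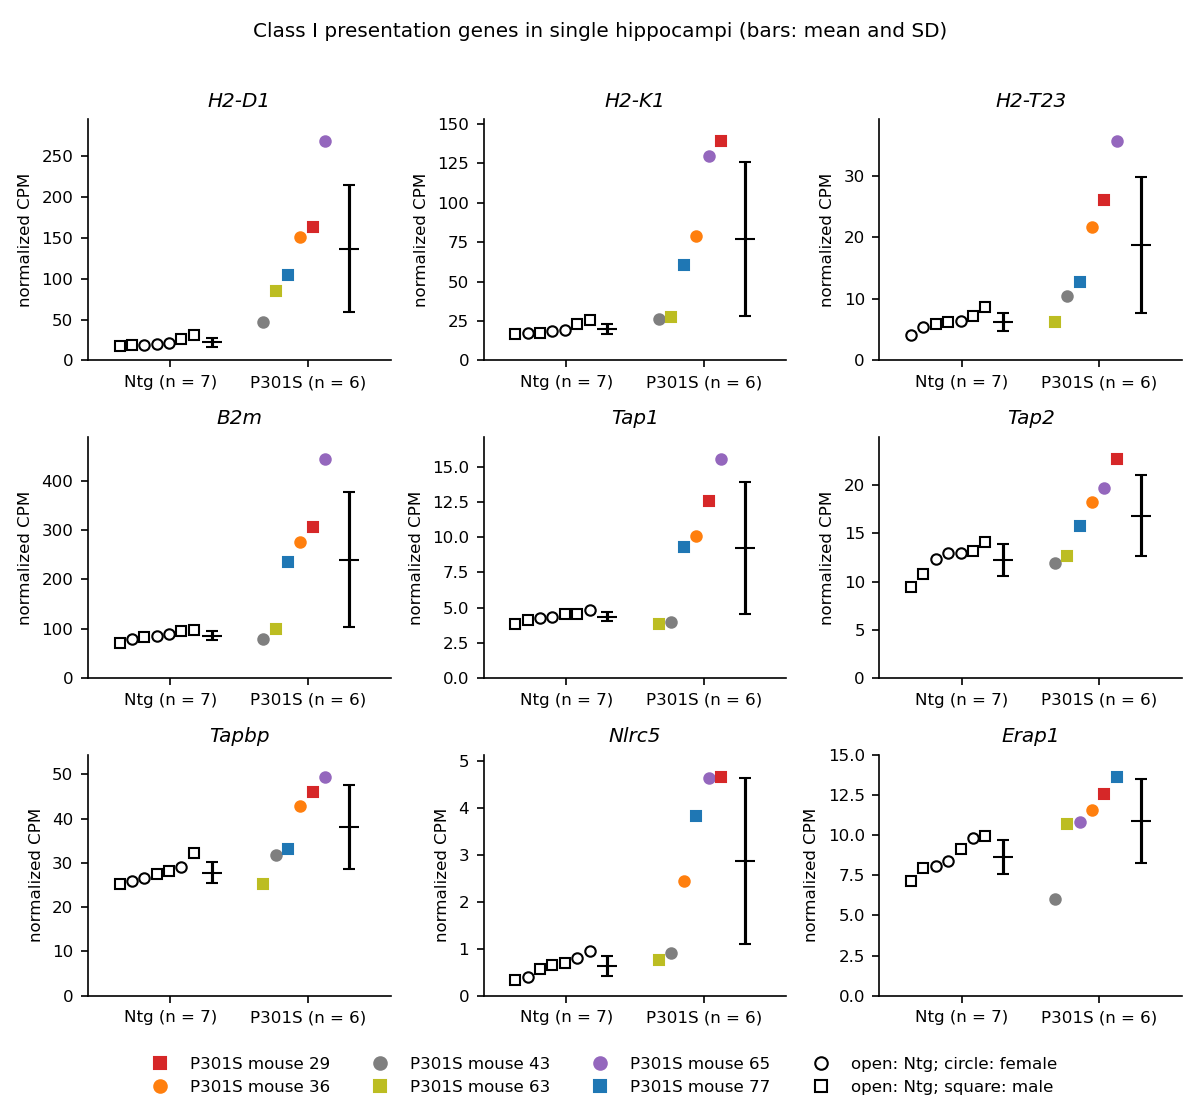
Normalized CPM of the 9 members in each hippocampus, with open symbols for Ntg, colored symbols for the 6 P301S mice, circles for females, squares for males and bars for the mean and SD. Mice 29, 36, 65 and 77 lie above the Ntg mice in every panel, whereas mice 43 and 63 lie in or near the Ntg range for B2m, Tap1, Tap2 and Nlrc5.

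The call depended on single mice for all passing members but H2-D1. Without P301S mouse 29, 36 or 65, or without Ntg mouse 35, 46, 61, 62, 68 or 71, only 1 member passed, H2-D1, whereas 8 passed without P301S mouse 43 and 7 without P301S mouse 63. H2-D1 passed in 13 of 13 such fits, with log2 fold changes of 2.32 to 2.81, and the fold changes of H2-K1, H2-T23, B2m and Nlrc5 stayed within 1.69 to 2.13, 1.29 to 1.76, 1.20 to 1.66 and 1.98 to 2.37. With sex as a covariate 3 members passed.

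Summed homeostatic microglial and T cell and NK cell markers were above the Ntg range in mice 29, 36, 65 and 77. The sum of disease-associated microglial markers was above it in mice 29, 36 and 65 only. Abundant genes dominate such a sum, and 3 of the 9 markers averaged under 1 CPM in Ntg mice. It therefore does not show whether markers of low level were raised in the other P301S mice. The summed level of 8 homeostatic microglial markers was 733 to 744 CPM in mice 29, 36 and 65, 541 CPM in mouse 77, and 342 and 387 CPM in mice 43 and 63, against 348 to 431 CPM in Ntg mice. None of these 8 genes passed by edgeR, with a median log2 fold change of 0.24. With the mean of these markers as a covariate, 2 members passed by edgeR, H2-D1 at 1.93 (adjusted p = 0.000331) and B2m at 0.63 (adjusted p = 0.0423), and the others ranged from 0.14 for Erap1 to 1.25 for Nlrc5 on the log2 scale. Of 9 markers of disease-associated microglia, 5 were higher, with Itgax at 6.12, Cst7 at 5.90 and Clec7a at 5.62 on the log2 scale. They summed to 3241, 3860.0 and 3365 CPM in mice 29, 36 and 65 and to 1551 to 2046 CPM in the other P301S mice, against 1555 to 2236 CPM in Ntg mice. The 12 T cell and NK cell markers summed to 11.7, 10.9, 6.93 and 6.74 CPM in mice 29, 65, 36 and 77, all above the Ntg range of 3.60 to 4.94 CPM, and to 4.31 and 3.17 CPM in mice 43 and 63. Only 4 of these 12 markers were tested and 0 passed, and 10 averaged under 1 CPM in P301S mice. Of 8 astrocyte markers 1 was higher, Gfap by 2.22 (adjusted p = 0.0206 by edgeR). The 8 endothelial markers summed to 132 to 170 CPM in P301S and 140 to 179 CPM in Ntg mice. The part of these cells in the members' differences was not tested.

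Other MHC genes set mouse 29 apart, H2-Ea-ps from all other mice and H2-Q6 and H2-Q7 from mice 36, 65 and 77. H2-Ea-ps, a class II gene that is a pseudogene in C57BL/6 mice, had 13.4 CPM in mouse 29, 0 to 0.0343 CPM in the other P301S mice and 0.0311 to 0.694 CPM in Ntg mice. H2-Q6 and H2-Q7, class I genes of the Q region, had 0.198 and 0.463 CPM in mouse 29 against 3.78 to 9.32 and 2.75 to 6.97 CPM in mice 36, 65 and 77. Like mouse 29, those mice were above every Ntg mouse for 9 of 9 members. Whether H2-Q6 and H2-Q7 in mouse 29 differed from the Ntg mice was not tested. What this means for the counts of the members in mouse 29 was not tested. Without mouse 29 the log2 fold changes were 2.58 for H2-D1 (adjusted p = 0.00584 by edgeR) and 1.69 for H2-K1 (adjusted p = 0.073).

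Of the neighboring pathway genes in hippocampi, class II genes moved most, with 7 of 9 tested members of that list higher. Over all genes, 1.39% were higher and 0.122% lower, the shares beside each list of this paragraph. H2-Aa, Cd74 and H2-Ab1, which form and chaperone class II molecules, were higher by 5.18, 5.14 and 4.76 on the log2 scale, and each passed in 4 of 13 fits that left out 1 mouse. The 11 class II genes summed to 686 to 875 CPM in mice 29, 36 and 65, to 60.0 CPM in mouse 77 and to 24.4 and 40.2 CPM in mice 43 and 63, against 19.4 to 39.0 CPM in Ntg mice. Of 14 tested class I-like and class Ib genes, 6 were higher, led by H2-Q7 (3.51), H2-Q6 (3.15) and H2-Q4 (1.91). Among 13 genes of peptide supply only Psmb8, an immunoproteasome subunit, was higher (1.58), and among 17 class I transcription factors Irf8 (1.56), Irf9 (1.24) and Rela (0.37) were. The 10 loading and folding chaperones of the endoplasmic reticulum gave 0 calls by edgeR, with a median log2 fold change of 0.01.

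The microglial cultures asked what tau fibrils and HT-DNA do to these genes, and whether cGAS is needed. In Cgas+/+ microglia, all 9 members were higher after tau fibrils than after vehicle, against 15.8% of all genes, and all 9 were higher after HT-DNA, against 22.8%. The groups did not overlap for any member in either comparison, as was so in the higher direction for 21.7% and 26% of all genes. Members' medians were 0.51 with tau, beside -0.01 over all genes, and 0.93 with HT-DNA, beside -0.03.

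Nlrc5 and Tap1 changed most. Nlrc5 was at 81.5, 103 and 120 CPM in the 3 vehicle libraries, 244, 277 and 277 CPM with tau and 416, 419 and 428 CPM with HT-DNA. The 3 treatments formed separate steps, and the log2 fold changes against vehicle were 1.39 with tau (95% CI 1.22 to 1.57, adjusted p = 3.61e-13 by edgeR) and 2.06 with HT-DNA (adjusted p = 2.99e-17). Tap1 was at 110, 140 and 167 CPM with vehicle, 321, 354 and 361 CPM with tau and 439, 463 and 485 CPM with HT-DNA, and rose by 1.31 and 1.73 on the log2 scale. Beyond a log2 fold change of 1, the study's limit for microglia, were 2 of 9 members with tau (2.89% of all genes) and 3 of 9 with HT-DNA (5.29%), the third being Tap2 at 1.21.

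The heavy chains and the light chain rose less. H2-D1 was at 1475, 1675 and 1692 CPM with vehicle, at 1933, 2126 and 2127 CPM with tau and at 1935, 2054 and 2250.4 CPM with HT-DNA. H2-K1 was at 1015, 1136 and 1155 CPM with vehicle, at 1457, 1605 and 1660.3 CPM with tau and at 1385, 1556 and 1569.5 CPM with HT-DNA. For both genes the tau and HT-DNA libraries overlapped. The log2 fold changes with tau were 0.35 for H2-D1, 0.51 for H2-K1, 0.43 for H2-T23 and 0.31 for B2m, and with HT-DNA 0.37, 0.45, 0.93 and 0.35, all with adjusted p under the limit by edgeR. Tapbp rose by 0.75 and 0.98, and Erap1 by 0.23 and 0.45.

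**Figure D3:**
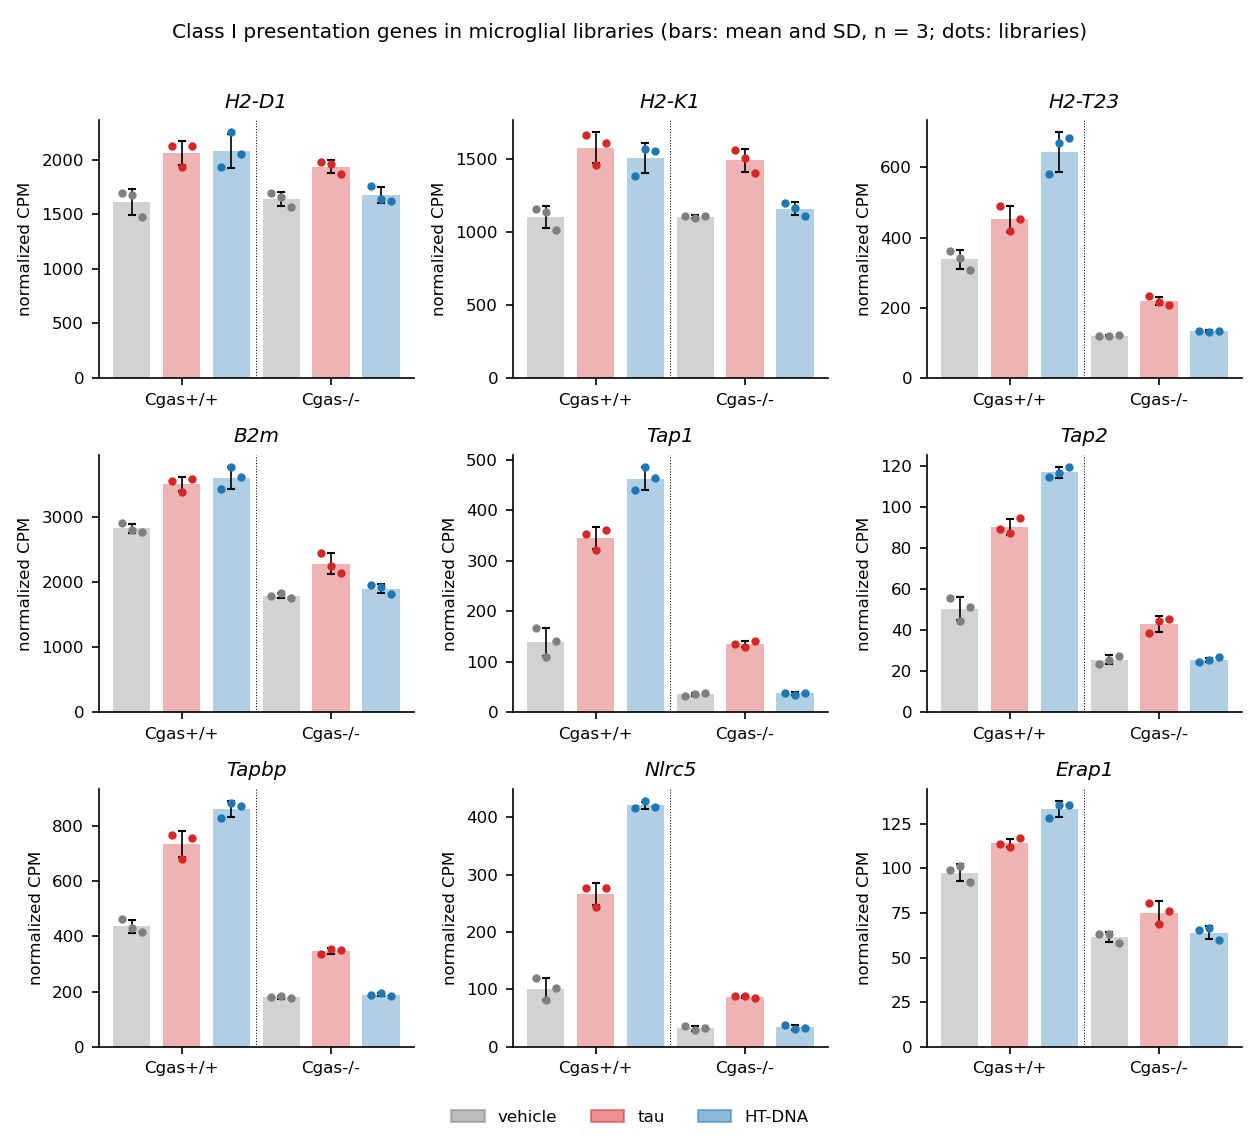
Normalized CPM of the 9 members in the 18 microglial libraries, with dots for libraries and bars for the mean and SD of 3. In Cgas+/+ cells tau and HT-DNA bars are above vehicle in every panel. In Cgas-/- cells tau bars are above vehicle and HT-DNA bars are close to it, and the H2-D1 and H2-K1 vehicle bars are alike in both genotypes.

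Tau and HT-DNA were compared directly in Cgas+/+ microglia. With tau, 6 of 9 members were lower than with HT-DNA, against 17.8% of all genes, namely Nlrc5 (-0.66 on the log2 scale), H2-T23 (-0.50), Tap1 (-0.42), Tap2 (-0.37), Tapbp (-0.23) and Erap1 (-0.22). H2-D1 differed by -0.01 (95% CI -0.12 to 0.10), H2-K1 by 0.07 (-0.04 to 0.18) and B2m by -0.04 (-0.13 to 0.05), and none of these 3 passed. The 6 that passed also had groups without overlap, as did 22.9% of all genes in that direction. The doses were of different substances, so their sizes describe these cultures only.

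In Cgas-/- microglia the treatments parted. Tau fibrils again raised all 9 members, against 11.2% of all genes, whereas HT-DNA gave 0 of 9 calls by edgeR (1.04% of all genes higher, 0.278% lower), 0 of 9 by DESeq2 and 1 of 9, H2-T23, at an unadjusted p under 0.05. Tap1 was at 32.8, 35.5 and 38.4 CPM with vehicle, at 129, 134 and 141 CPM with tau and at 34.9, 38.7 and 39.1 CPM with HT-DNA. Nlrc5 was at 28.5, 32.2 and 36.2 CPM, at 85.6, 88.4 and 88.5 CPM and at 31.2, 32.2 and 38.0 CPM in the same order. For both genes the tau libraries were apart from the others and the HT-DNA libraries overlapped vehicle.

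The log2 fold changes with tau in Cgas-/- cells were 1.92 for Tap1, 1.44 for Nlrc5, 0.95 for Tapbp, 0.86 for H2-T23, 0.74 for Tap2, 0.43 for H2-K1, 0.35 for B2m, 0.29 for Erap1 and 0.24 for H2-D1. Tau and vehicle groups did not overlap for 9 of 9 members (17.4% of all genes), and 2 of 9 went beyond 1 (2.46%). With HT-DNA they ranged from -0.00325 for Tap2 (95% CI -0.17 to 0.16) to 0.15 for H2-T23 (0.01 to 0.28), the member whose groups did not overlap, as was so in the higher direction for 10.4% of all genes. The upper 95% bound was 0.28 for Tap1 and 0.28 for Nlrc5, so for these genes the fold change seen in Cgas+/+ cells lay outside the interval.

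The difference between genotypes was tested as an interaction. The HT-DNA response was smaller in Cgas-/- cells for all 9 members (16.6% of all genes), with differences from -0.27 for B2m to -1.99 for Nlrc5 on the log2 scale. The tau response was larger on the log2 scale in Cgas-/- cells for 2 members (3.61% of all genes), H2-T23 by 0.44 (adjusted p = 0.00187 by edgeR) and Tap1 by 0.61 (adjusted p = 0.00258), and 0 were smaller (3.31% of all genes). On the CPM scale neither increment was larger in Cgas-/- cells. Tau added 206 ± 20.4 CPM of Tap1 in Cgas+/+ and 99.3 ± 4.02 CPM in Cgas-/- cells (SE of a difference of means, n = 3 and 3), and 116 ± 26.6 and 98.9 ± 7.45 CPM of H2-T23, which differed by less than the first SE. The interaction values of the other 7 members lay between -0.11 for H2-D1 and 0.20 for Tapbp (adjusted p = 0.0713), and the 95% interval of Nlrc5 ran from -0.22 to 0.31.

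**Figure D4:**
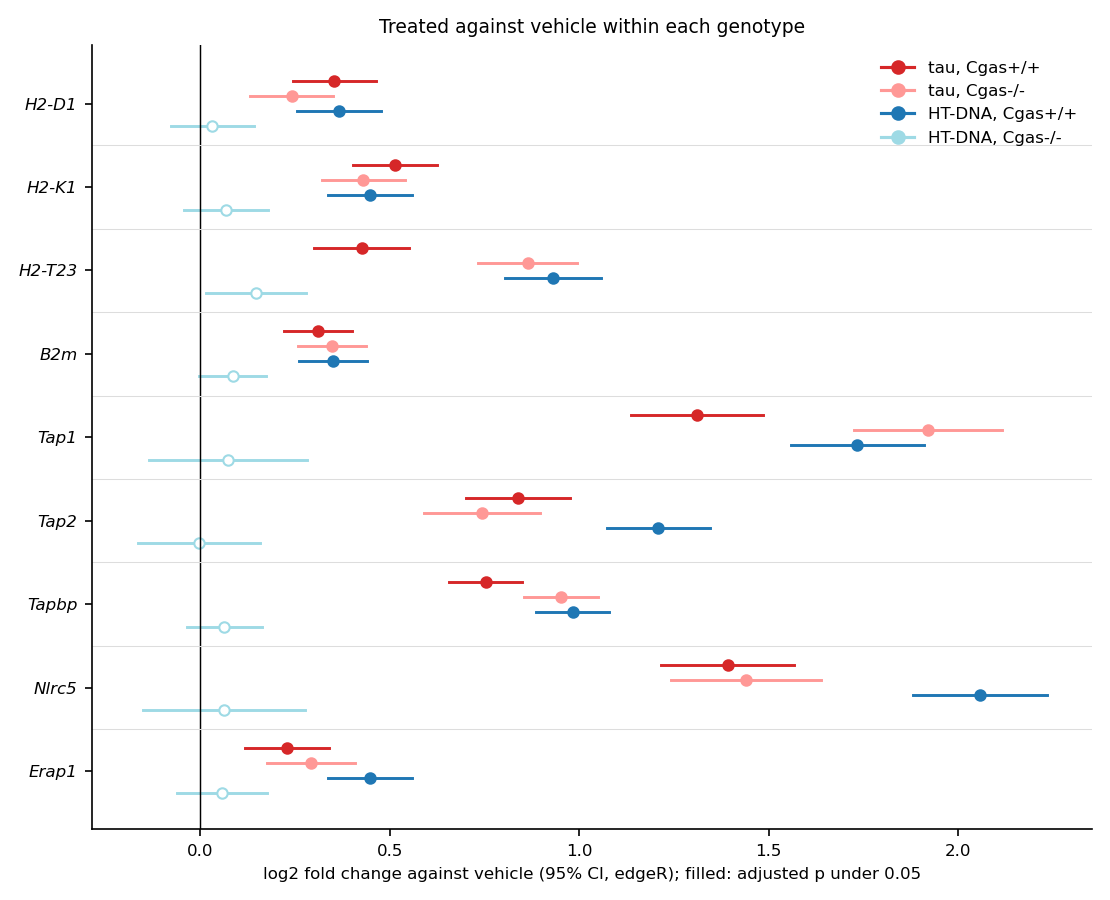
Log2 fold changes against vehicle with 95% confidence intervals for each member and genotype, filled where the adjusted p was under 0.05. Tau in either genotype and HT-DNA in Cgas+/+ cells lie right of 0 for all 9 members, and HT-DNA in Cgas-/- cells gives open symbols near 0.

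Genotypes were then compared under each treatment. With vehicle alone, 7 of 9 members were lower in Cgas-/- than in Cgas+/+ cultures. Genes that differed were many in this comparison, with 27.3% of all genes lower and 24.7% higher. The log2 differences were -1.96 for Tap1, -1.65 for Nlrc5, -1.49 for H2-T23, -1.28 for Tapbp, -0.97 for Tap2, -0.67 for Erap1 and -0.66 for B2m. H2-T23 was at 307, 343 and 362 CPM in Cgas+/+ and at 119, 120.2 and 122 CPM in Cgas-/- vehicle libraries, without overlap.

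H2-D1 and H2-K1 were the exceptions. In Cgas-/- vehicle libraries H2-D1 was at 1565, 1656 and 1694 CPM and H2-K1 at 1096, 1106 and 1111 CPM, which overlapped the Cgas+/+ vehicle libraries. The genotype difference was 0.02 for H2-D1 (95% CI -0.09 to 0.13) and 0.00 for H2-K1 (-0.11 to 0.11) on the log2 scale. With tau the same 7 members were lower (26.2% of all genes), and H2-D1 (-0.09, adjusted p = 0.163 by edgeR) and H2-K1 (-0.08, adjusted p = 0.216) did not pass. With HT-DNA all 9 were lower (30.1% of all genes), from -0.31 for H2-D1 and -0.38 for H2-K1 to -3.62 for Tap1 and -3.64 for Nlrc5 on the log2 scale. Groups did not overlap for the members that passed under each treatment, 7 with vehicle (30.9% of all genes lower without overlap), 7 with tau (29.1%) and 9 with HT-DNA (31.8%). Beyond a log2 fold change of 1 were 4 members with vehicle (7.35% of all genes), 5 with tau (7.41%) and 6 with HT-DNA (11.8%).

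**Figure D5:**
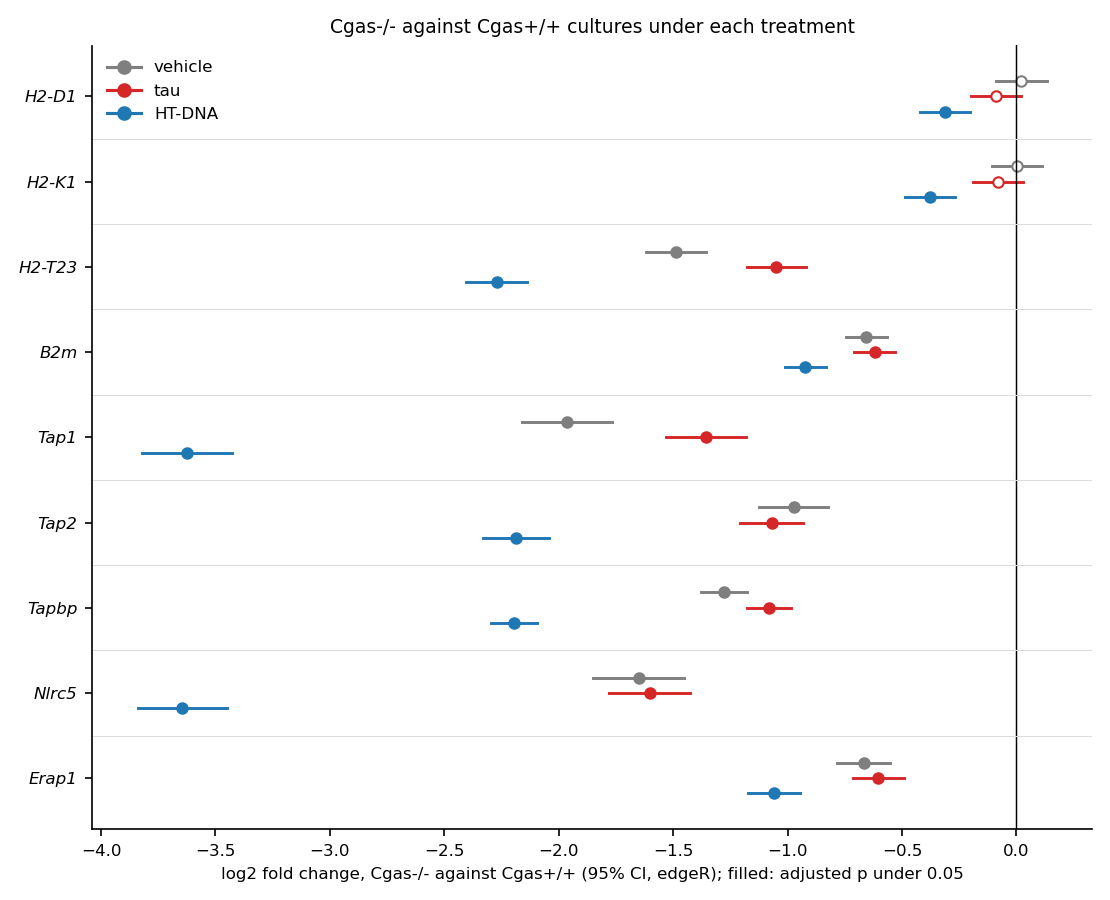
Log2 fold changes of Cgas-/- against Cgas+/+ cultures with 95% confidence intervals under vehicle, tau and HT-DNA, filled where the adjusted p was under 0.05. Every member but H2-D1 and H2-K1 lies left of 0 under all 3 treatments, and the HT-DNA points lie furthest left.

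The order of the 6 groups put these steps together. H2-T23 and Tapbp had all Cgas+/+ groups above all Cgas-/- groups, as did B2m and Erap1. For H2-D1 and H2-K1 the tau and HT-DNA groups of Cgas+/+ cells and the tau group of Cgas-/- cells came first and overlapped in order, and the other 3 groups overlapped below them. Tap1, Tap2 and Nlrc5 had the Cgas-/- tau group overlapping the Cgas+/+ vehicle group. A comparison of these groups, added after the data were seen, gave differences of -0.04 for Tap1 (95% CI -0.22 to 0.13), -0.21 for Nlrc5 (adjusted p = 0.0465 by edgeR) and -0.23 for Tap2 (adjusted p = 0.00649), while H2-D1 and H2-K1 were higher by 0.26 and 0.43 in tau-treated Cgas-/- cells (26.1% of all genes higher, 24.5% lower). Both had groups without overlap, as did 28.5% of all genes, and so did B2m, Tapbp, H2-T23 and Erap1 in the lower direction (27.2%). The Nlrc5 call held in 4 of 18 fits that each left out 1 library, where its value ran from -0.35 to -0.07, and ended with DESeq2 (adjusted p = 0.115).

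Genes that work around the members moved in part with them. The shares of all genes belong beside every list count from here on. In Cgas+/+ cells 15.8% were higher and 12.2% lower with tau, and 22.8% and 24.7% with HT-DNA. In Cgas-/- cells 11.2% were higher and 5.48% lower with tau, and 1.04% and 0.278% with HT-DNA. Of 13 peptide supply genes, 8 were higher with tau in Cgas+/+ cells, led by the immunoproteasome subunits Psmb9 (1.08) and Psmb10 (0.93) and the proteasome activator Psme2 (0.89 on the log2 scale). With HT-DNA 8 were higher and 1 lower, with Lap3 at 1.72 and Psmb9 at 1.47. In Cgas-/- cells 7 were higher and 1 lower with tau, Psmb9 being higher by 1.42, and HT-DNA gave 0 calls by edgeR. HT-DNA in Cgas-/- cells did raise 3 of 10 loading and folding genes, Hspa5 by 0.24 (adjusted p = 0.00538 by edgeR), Calr by 0.20 and Pdia3 by 0.16, and the inhibitory receptor gene Lilrb4a by 0.23 on the log2 scale. These small calls come from a group in which 1 library stood apart. Squared differences relative to counting noise averaged 22.4 and 28.0 per gene in its pairs and 4.15 in the remaining pair. Pairs in the other microglial groups gave 2.32 to 10.7.

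Among the transcription factors that act on class I genes, 8 of 17 were higher and 1 lower with tau in Cgas+/+ cells, with Irf1 at 1.08 and Stat2 at 1.02, and 8 were higher and 1 lower in Cgas-/- cells, with Stat2 at 2.74 and Irf9 at 1.46. With HT-DNA 7 of 17 were higher and 1 lower in Cgas+/+ cells, Stat2 being higher by 1.46 and Irf1 by 1.36, and Cgas-/- cells gave 0 calls by edgeR. With vehicle, the difference of Stat2 between Cgas-/- and Cgas+/+ cultures was -3.58 on the log2 scale, lower by the test.

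Of 14 tested class I-like and class Ib genes, 10 were higher and 2 lower with tau in Cgas+/+ cells, and 6 higher and 1 lower with HT-DNA. H2-M2 rose by 2.32 with tau and fell by 0.48 with HT-DNA, while H2-T22 rose by 1.31 and 1.74. The tapasin-related chaperone Tapbpl was higher with both, by 0.88 and 1.02. The 10 loading and folding genes gave 2 higher and 1 lower calls with tau, near the 15.8% and 12.2% of all genes. With HT-DNA 7 were higher and 1 lower, against 22.8% and 24.7%. Hspa5, a chaperone of the unfolded protein response, was at 0.28 with tau and 0.98 with HT-DNA. In Cgas+/+ cells class II genes, by contrast with hippocampi, gave 2 higher calls of 8 with tau (15.8% of all genes). With HT-DNA they gave 0 higher and 1 lower (22.8% and 24.7%).

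Markers of other cells were checked in the cultures. Of 12 T cell and NK cell markers 6 to 9 were at 0 in all libraries of a group, and the list summed to 2.68 to 7.21 CPM. Neuronal, astrocyte and fibroblast lists summed to 16.5 CPM at most. The 8 oligodendrocyte markers summed to 65.2 to 120 CPM in Cgas+/+ and 50.4 to 54.6 CPM in Cgas-/- libraries. Lower in Cgas-/- cultures were 5 of 6 tested with vehicle, 6 with tau and 6 with HT-DNA (27.3%, 26.2% and 30.1% of all genes). The 8 endothelial markers summed to 106 to 126 CPM with vehicle, 142 to 178 with tau and 380 to 391 with HT-DNA in Cgas+/+ libraries and to 27.6 to 37.3 CPM in Cgas-/- libraries, almost all from Flt1 and Kdr, while Cldn5 was at or near 0. Homeostatic markers summed to 3121 to 3457 CPM in Cgas+/+ and 2018 to 2525 CPM in Cgas-/- libraries. The part of these in the members' differences was not tested.

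The nearest pattern to the median of the members was searched among genes with a mean log2 CPM over 2, by the root mean square difference of centered log2 CPM. Over 18 microglial libraries and 9706 genes the nearest were Rnf31 (0.08), Zcchc2 (0.12), Tmcc3 (0.13), Ankle2 (0.13) and Stard3 (0.15). Over 13 hippocampi and 12006 genes they were Ctsz (0.15), Irf8 (0.17), Psmb8 (0.18), Csf3r (0.20) and Rac2 (0.21). The lists had no gene in common.

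How the authors' counting assigned reads that match several genes is not given in the sources used here. Of the 50-base words in the last 500 bases of annotated transcripts, 8.92% of those of H2-D1, 9.6% of H2-K1 and 38.1% of H2-T23 also occurred in transcripts of other genes of any kind, against 0% for B2m, Tap2, Nlrc5 and Erap1. The gene sharing most words was H2-K1 for H2-D1 (3.52%), H2-D1 for H2-K1 (7.71%) and Rab33b for H2-T23 (17.3%). Tapbp overlaps Zbtb22 on the same strand, so a strand setting would not separate them. Zbtb22 had up to 1425 counts in a hippocampus, against 1389 for Tapbp, and up to 1028 in a microglial library, against 16369. On the opposite strand Tap1 overlaps Psmb9, Erap1 overlaps Cast, which had up to 3025 counts in a microglial library against 2519 for Erap1, and H2-T23 and Nlrc5 overlap noncoding genes. The strand setting of the counts is not given. Values of all these genes are less certain where reads fall in the overlap.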

How the data were processed

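The authors deposited raw read counts per gene for 13 hippocampi and 18 microglial libraries, and submitters' processing notes name GRCm38, edgeR and limma. The aligner, counting tool, strand setting and treatment of multi-mapped reads are not given in the sources used here. Labels and methods differ on the library kit and on the age of the mice, and the age in the labels was used. Members and gene lists were chosen with earlier results of these data known. With R 4.3.3, edgeR 4.0.16 filtered genes (filterByExpr), scaled libraries by TMM and ran quasi-likelihood F tests with Benjamini-Hochberg adjustment over all tested genes, in 1 fit of the 6 microglial groups and 1 of the mice. Hippocampal members also had an exact permutation test over 1716 splits of the mice. Pathway genes were named when they passed, with a mean count of at least 20 in a group, up to 3 per list and direction. DESeq2 1.42.0, RLE scaling, no filter, fits of only the compared groups, a replicate block, covariates and left-out libraries were alternatives. The calculation was tested on simulated data. Total counts limit precision most for Nlrc5 in hippocampi.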

Additional observations from a re-analysis of the deposited data

Results flagged for a closer look

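The response to treatment differed between genotypes for several members by the interaction test, with values given as Cgas-/- minus Cgas+/+ on the log2 scale. For tau fibrils the difference was 0.44 for H2-T23 and 0.61 for Tap1. For HT-DNA it was -0.33 for H2-D1, -0.38 for H2-K1, -0.78 for H2-T23, -0.27 for B2m, -1.66 for Tap1, -1.21 for Tap2, -0.92 for Tapbp, -1.99 for Nlrc5 and -0.39 for Erap1. These values compare cultures whose sex mix may also have differed, and that part was not tested. In hippocampi, no mouse stood apart from its group for any of the 9 members by Dixon's criterion. This criterion looks for a single mouse and can miss mice that are low together, as mice 43 and 63 were for B2m.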

How the results depend on the processing

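Over all alternatives, 2352 of 2439 member values kept their direction and their side of the threshold, 59 lost the call, 11 gained it and 17 changed sign. Of these values, 1899 came from fits without 1 library, which could lie outside the compared groups, and so did 52 of the lost calls. The hippocampal calls of H2-K1, H2-T23, B2m and Nlrc5 were lost in most such fits, which the pooled count does not show. In hippocampi 3 members passed with sex as a covariate, 2 with the homeostatic marker mean as a covariate, 7 with DESeq2, and 1 to 8 when 1 mouse was left out. The cause was not tested. Requiring a log2 fold change beyond 1 left 2 members for tau and 3 for HT-DNA in Cgas+/+ cells, 0 for tau against HT-DNA, 2 for tau in Cgas-/- cells, 4 for genotype with vehicle and 0 for Cgas-/- with tau against Cgas+/+ with vehicle, since it adds a criterion. Signs changed only in fits that left out 1 library, for values near 0. These ranged from -0.0622 to 0.0514 for H2-D1 and -0.0013 to 0.12 for H2-K1 in tau against HT-DNA, from -0.0185 to 0.0559 for H2-D1, -0.059 to 0.0589 for Tap2 and -0.0377 to 0.147 for Nlrc5 with HT-DNA in Cgas-/- cells, from -0.0374 to 0.0588 for H2-D1 and -0.0515 to 0.0397 for H2-K1 between genotypes with vehicle, from -0.0176 to 0.0813 for B2m and -0.0926 to 0.185 for Nlrc5 in the tau interaction, and from -0.188 to 0.112 for Tap1 in Cgas-/- with tau against Cgas+/+ with vehicle. The tau interaction gave 2 to 3 members and the last comparison 6 to 9 when 1 library was left out. Same-numbered microglial libraries did not deviate together (correlations -0.085 to 0.0823, 0 of 45 pairs over 0.1, and 5 of 18 libraries nearest to their own number), and a replicate block changed no member call in 99 of 99 values, with 9 members called for tau in Cgas+/+ cells with and without the block.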
